A study of Mus musculus with 16 samples.

Results

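The mevalonate branch of sterol synthesis, from acetyl-CoA to squalene epoxide, is described here in cultured mouse hepatocytes through 9 genes: Acat2, Hmgcs1, Mvk, Pmvk, Mvd, Idi1, Fdps, Fdft1 and Sqle. They were chosen by symbol, for their place in the pathway, and all 9 were found among the 55450 genes of the count table. Primary hepatocytes from the livers of wild-type mice were cultured overnight in complete medium and sequenced as bulk mRNA, in 16 libraries. The 4 treatments, each with 4 libraries lettered A to D, were no addition (untreated), 10 mM sodium itaconate, a lipid mixture of known composition at a 10-fold dilution, or lipid and itaconate together. The mixture is listed with arachidonic acid at 2 µg/mL, linoleic, myristic, oleic, palmitic and stearic acids at 10 µg/mL each and cholesterol at 0.22 mg/mL, and the labels do not say whether these hold before or after dilution. The labels give neither the strain nor the age of the mice, and every group shares the wild-type genotype and the medium.

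The mevalonate pathway joins acetyl units into isoprenoids, and its first committed sterol product, squalene, is oxidised to squalene epoxide before the ring closes to lanosterol. In liver it supplies cholesterol for membranes, lipoproteins and bile acids, as well as farnesyl groups for ubiquinone, dolichol and prenylated proteins. Genes of the pathway are classic targets of SREBP-2, a membrane-bound transcription factor that is released when sterol in the endoplasmic reticulum is low and held back when it is high.

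Library totals ran from 22346049 to 35512004 expected counts, with a median of 27719372, and levels are given as CPM, that is, counts divided by effective library size and scaled to a common depth. All 9 genes passed the filter on low values (mean CPM no lower than 1), as did 11675 genes in all. The fewest counts behind any value were 137, for Mvk in lipid C, and the most were 8323, for Fdps in untreated B. Counting error is thus largest for Mvk and Mvd, the 2 genes with the lowest levels.

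The cell type on the label was checked against marker genes. All 10 hepatocyte markers were above 1 CPM, with Alb at a mean of 33507 CPM, and the summed hepatocyte markers were at 53217 ± 7372 CPM in untreated and 46025 ± 5494 CPM in lipid libraries (SD, n = 4). All 7 stellate and all 4 lymphocyte markers had a mean under 1 CPM over the 16 libraries, although Dcn (1.78 CPM at most) and Ptprc passed 1 CPM in their highest library, and Nkg7 was at 0 in every library. Markers of other liver cells were not all absent. The macrophage list summed to 234 ± 45.2 CPM in untreated, 209 ± 36.2 in itaconate, 288 ± 41.9 in lipid and 271 ± 49.8 in lipid with itaconate libraries. Cd68, at a mean of 218 CPM, made up most of that sum, whereas the more specific Adgre1 and Clec4f were at 1.78 and 2.19 CPM. The cholangiocyte list summed to 848 ± 246, 761 ± 208, 467 ± 123 and 493 ± 119 CPM in the same order of groups, nearly all of it from Spp1 and Sox9, while Krt19, Krt7 and Epcam were under 1 CPM. The endothelial list summed to no more than 22.6 CPM in any library. Of the markers tested, with lipid alone 0 of 10 hepatocyte markers rose and 5 fell, 1 of 7 macrophage markers rose and 3 fell, 1 of 5 endothelial markers rose and 1 fell, and both of the 2 cholangiocyte markers fell (Spp1 at -0.97 and Sox9 at -0.37 on the log2 scale). Given itaconate, lipid raised 1 and lowered 7 hepatocyte markers, raised 1 and lowered 6 macrophage markers, lowered 1 endothelial marker and lowered 2 cholangiocyte markers. Among all genes tested, 23.8% rose and 23.7% fell with lipid alone, and 23.5% went each way given itaconate. No test compared the markers with all genes. In bulk RNA, fewer cells of a type and less RNA per cell cannot be told apart, and the part of these marker shifts in the results on the mevalonate genes was not tested.

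Levels of different genes were compared per kilobase of exon. In untreated cells Fdps, which makes farnesyl diphosphate, stood highest at 65.3 ± 5.20 CPM per kilobase (SD, n = 4), followed by the HMG-CoA synthase Hmgcs1 at 58.8 ± 6.92. The isomerase Idi1 came next at 33.9 ± 4.93, then Fdft1 at 26.6 ± 2.43, Acat2 at 26.2 ± 1.97, Sqle at 25.1 ± 1.94 and Pmvk at 19.0 ± 3.61 CPM per kilobase. Mvd at 7.02 ± 0.891 and Mvk at 3.91 ± 1.45 CPM per kilobase closed the order. The ranges of neighbouring genes were separate at only 3 steps of the untreated order, namely between Hmgcs1 and Idi1, between Pmvk and Mvd, and between Mvd and Mvk.

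The order was different with lipid. Fdps was again first at 42.2 ± 4.04 and Hmgcs1 second at 27.9 ± 2.90, but Sqle was at rank 3 in place of rank 6, at 27.3 ± 5.00 CPM per kilobase. Idi1 was at rank 6 in place of rank 3, at 14.7 ± 3.07 CPM per kilobase. In lipid libraries the range of Sqle overlapped that of Hmgcs1 above it and lay apart from that of Pmvk, the next gene down. Lipid with itaconate gave the same first 3 genes, with Fdps at 37.9 ± 3.25, Hmgcs1 at 25.4 ± 1.21 and Sqle at 24.0 ± 1.01 CPM per kilobase. Under itaconate alone every neighbouring pair overlapped apart from Pmvk and Mvd.

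The first question was how the branch stood when the medium held a lipid mixture that contains cholesterol. Of the 9 genes, 8 fell with lipid in cells without itaconate and 0 rose, at an adjusted p under 0.05 in edgeR. Of all genes tested, 23.7% fell and 23.8% rose in that comparison. Against a background of itaconate, 8 of 9 fell as well and 0 rose, beside 23.5% of all genes falling and 23.5% rising. The exception in both comparisons was Sqle, the last enzyme of the branch. Over the 9 genes the log2 fold change had a median of -0.67 without and -0.59 with itaconate, whereas the median of all genes tested was within 0.0047 of 0 in each. For 6 of the 9 genes the lipid and untreated libraries did not overlap, and the same count held between lipid with itaconate and itaconate. The share of all genes tested without such overlap is not given here, so this count describes the 9 genes only. The p-values measure only the spread between these libraries, since the labels do not say that the letters are separate animals.

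**Figure D1:**
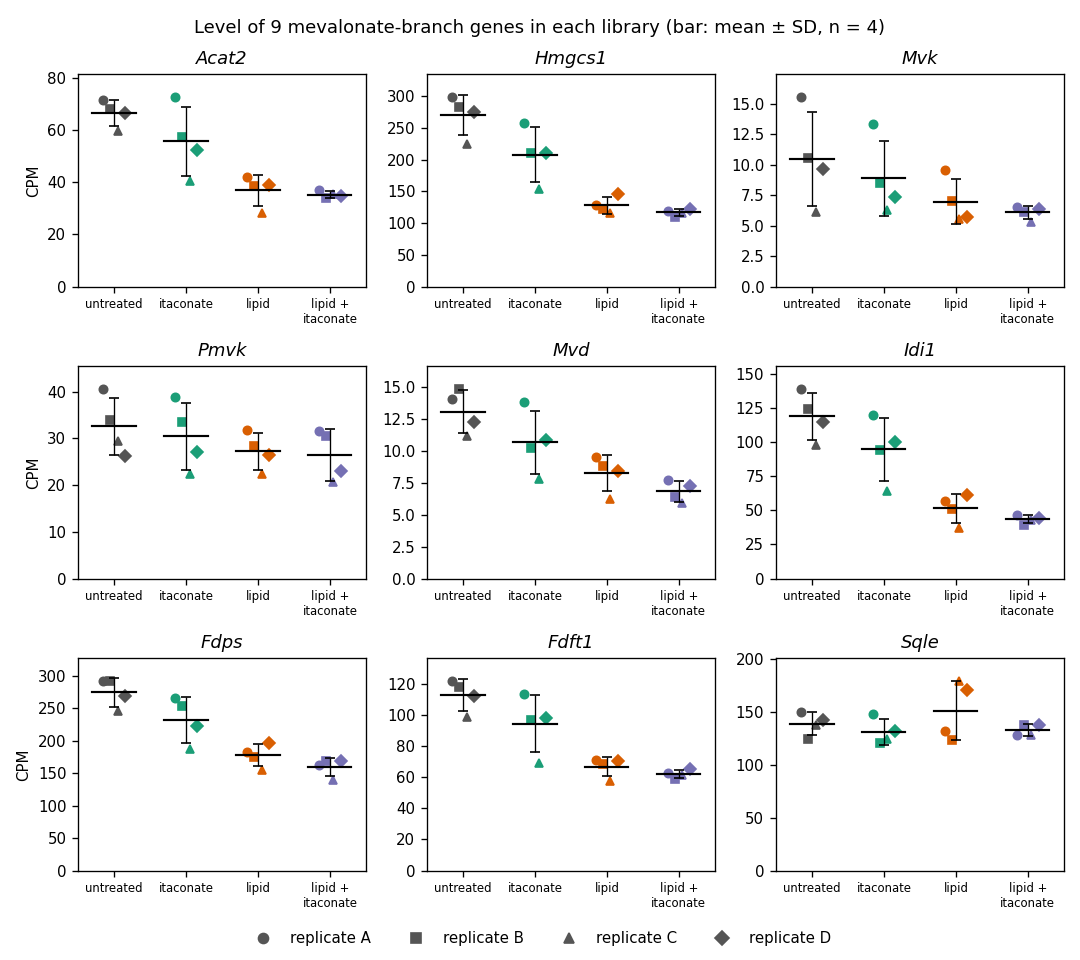
Level of each of the 9 genes, in CPM from 0, in every library, by treatment; symbols mark the replicate letter, and bars the mean ± SD of 4 libraries. The mean of every gene but Sqle is lower in each lipid group than in its comparison group.

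Acat2 and Hmgcs1 carry out the entry steps, in which acetyl-CoA is condensed to acetoacetyl-CoA and then to HMG-CoA. Acat2 (ENSMUSG00000023832.14, GRCm38 chromosome 17, 12942890 to 12960747) was at 71.8, 68.0, 59.8 and 66.7 CPM in untreated A to D and at 42.0, 38.8, 28.3 and 39.1 CPM in lipid A to D. Its levels were 72.8, 57.3, 40.4 and 52.4 CPM with itaconate and 37.2, 33.8, 35.4 and 34.7 CPM with both. Every library with lipid lay below every library of its comparison group, although itaconate C, at 40.4, was within the range of lipid alone. The log2 fold change of Acat2 with lipid was -0.85 (SE 0.090, adjusted p 2.34e-06), or 44.7% lower, and it was -0.63 (SE 0.090, adjusted p 4.80e-05) in the presence of itaconate, each lower in 4 of 4 letters. Hmgcs1, the cytosolic HMG-CoA synthase, had the second largest fall of the branch on the log2 scale.

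Hmgcs1 (ENSMUSG00000093930.2, chromosome 13, 119690379 to 119708260) was at 299, 283, 225 and 275 CPM in untreated A to D and at 129, 122, 116 and 147 CPM in lipid A to D. With itaconate it was at 257, 211, 153 and 211 CPM, and with both at 119, 109.8, 116 and 123 CPM. The lipid libraries again lay wholly below their comparison libraries. Hmgcs1 fell by 52.5% with lipid (log2 fold change -1.07, SE 0.084, adjusted p 1.25e-07) and, given itaconate, by 43.1% (log2 fold change -0.81, SE 0.084, adjusted p 2.58e-06), lower in 4 of 4 letters each time.

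Mvk, Pmvk and Mvd then turn mevalonate into isopentenyl diphosphate, through successive phosphorylations and a decarboxylation. Mvk (ENSMUSG00000041939.14, chromosome 5, 114444269 to 114460591), the first kinase, was at 15.6, 10.5, 6.14 and 9.63 CPM in untreated A to D and at 9.59, 7.03, 5.55 and 5.74 CPM in lipid A to D. It was at 13.3, 8.50, 6.33 and 7.32 CPM with itaconate and 6.55, 6.09, 5.28 and 6.41 CPM with both. The groups overlapped because letters differed widely, A being high and C low, but within each letter the lipid library was the lower one. The log2 fold change of Mvk with lipid was -0.56 (SE 0.13, adjusted p 0.00287) and, with itaconate present, -0.50 (SE 0.13, adjusted p 0.00671). Both calls rest on the letter being in the model, since without it the adjusted p was 0.0903 and 0.114.

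Pmvk (ENSMUSG00000027952.16, chromosome 3, 89454541 to 89469013), the second kinase, was at 40.5, 33.9, 29.5 and 26.3 CPM in untreated A to D and at 31.7, 28.3, 22.3 and 26.5 CPM in lipid A to D. With itaconate it was at 38.8, 33.6, 22.3 and 27.0 CPM, and with both at 31.7, 30.6, 20.6 and 23.0 CPM. On the log2 scale this was the smallest of the called falls with lipid, and in letter D the lipid library was not below the untreated one. Pmvk fell with lipid by 16.1% (log2 fold change -0.25, SE 0.073, adjusted p 0.00986, lower in 3 of 4 letters) and, given itaconate, by 12.8% (log2 fold change -0.20, SE 0.073, adjusted p 0.0357, lower in 4 of 4 letters). The first call was lost without untreated C (log2 fold change -0.18, adjusted p 0.0535) and without the letter in the model (adjusted p 0.274). The second was lost without itaconate A, B or D or lipid with itaconate A, C or D, with adjusted p between 0.0788 and 0.109, and without the letter in the model (adjusted p 0.406).

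Mvd (ENSMUSG00000006517.5, chromosome 8, 122433601 to 122443422), the decarboxylase, was at 14.0, 14.8, 11.2 and 12.2 CPM in untreated A to D and at 9.51, 8.80, 6.24 and 8.40 CPM in lipid A to D. With itaconate it was at 13.8, 10.2, 7.76 and 10.8 CPM, and with both at 7.71, 6.36, 5.93 and 7.23 CPM. The lipid libraries stood apart from the untreated ones, and those with both treatments only just from itaconate C. Mvd fell with lipid by 37.3% (log2 fold change -0.67, SE 0.097, adjusted p 4.54e-05) and, given itaconate, by 35.4% (log2 fold change -0.63, SE 0.098, adjusted p 0.000107), in 4 of 4 letters each.

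Idi1 and Fdps build the isoprenoid chain: Idi1 isomerises isopentenyl diphosphate to dimethylallyl diphosphate, and Fdps joins the units into farnesyl diphosphate. Idi1 (ENSMUSG00000058258.14, chromosome 13, 8885501 to 8892451) was at 139, 125, 97.8 and 115 CPM in untreated A to D and at 57.2, 50.7, 36.8 and 61.5 CPM in lipid A to D. It was at 120.2, 94.5, 64.1 and 100.3 CPM with itaconate and 46.7, 39.5, 43.2 and 44.3 CPM with both. No lipid library reached the lowest of its comparison group. Idi1 had the largest fall of the 9 genes on the log2 scale in both comparisons, 56.9% with lipid (log2 fold change -1.21, SE 0.10, adjusted p 2.30e-07) and 53.1% given itaconate (log2 fold change -1.09, SE 0.10, adjusted p 1.09e-06), in 4 of 4 letters each.

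Fdps (ENSMUSG00000059743.12, chromosome 3, 89093588 to 89101959) was at 292, 292, 246 and 269 CPM in untreated A to D and at 183, 175, 156 and 196 CPM in lipid A to D. With itaconate it was at 266, 254, 187 and 223 CPM, and with both at 162, 168, 139.6 and 168 CPM. The groups were again separate. The log2 fold change of Fdps was -0.63 with lipid (SE 0.057, adjusted p 4.94e-07) and -0.54 given itaconate (SE 0.057, adjusted p 3.21e-06), lower in 4 of 4 letters each. Its standard error was the smallest of the 9 genes.

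Fdft1 and Sqle commit farnesyl diphosphate to sterols: Fdft1, squalene synthase, joins a pair of farnesyl groups, and Sqle, squalene epoxidase, adds the oxygen. Fdft1 (ENSMUSG00000021273.10, chromosome 14, 63145150 to 63179578) was at 122, 118, 98.4 and 112 CPM in untreated A to D and at 70.8, 68.2, 57.9 and 70.3 CPM in lipid A to D. It was at 113, 96.7, 69.3 and 98.3 CPM with itaconate and 62.5, 59.0, 61.7 and 65.4 CPM with both. Lipid libraries lay below all of their comparison libraries. Fdft1 fell with lipid by 40.7% (log2 fold change -0.75, SE 0.076, adjusted p 1.49e-06) and, given itaconate, by 33.4% (log2 fold change -0.59, SE 0.076, adjusted p 1.94e-05), in 4 of 4 letters each.

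Sqle (ENSMUSG00000022351.14, chromosome 15, 59315077 to 59331192) was the only gene of the branch not called with lipid. It was at 150.3, 125, 138 and 143 CPM in untreated A to D and at 132, 124, 179 and 171 CPM in lipid A to D. With itaconate it was at 149, 121, 125 and 132 CPM, and with both at 128, 138, 128 and 138 CPM. Lipid C and D were the highest of all libraries, lipid A lay within the untreated range, lipid B just under untreated B, its lowest library, and the groups overlapped. The log2 fold change of Sqle with lipid was 0.12 (SE 0.091, 95% interval -0.07 to 0.31, adjusted p 0.292, higher in 2 of 4 letters), and without lipid C it was 0.01. Given itaconate it was 0.02 (SE 0.091, 95% interval -0.18 to 0.21, adjusted p 0.892, higher in 3 of 4 letters), a value that took the other sign without itaconate C (-0.03), itaconate D (-0.01) or lipid with itaconate B (-0.07). Without itaconate the interval of Sqle lay above that of every other gene of the branch, the nearest being Pmvk at -0.41 to -0.10. Given itaconate the interval of Pmvk, -0.35 to -0.04, overlapped that of Sqle, and those of the other genes lay below it.

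Sqle missed the threshold where Fdft1 passed it, and the ratio of the pair is given as a description of that pattern, chosen after the values were seen. The log2 ratio of Sqle to Fdft1, in CPM, was 0.30, 0.08, 0.49 and 0.35 in untreated A to D and 0.90, 0.86, 1.63 and 1.28 in lipid A to D. It was 0.39, 0.32, 0.85 and 0.43 with itaconate and 1.04, 1.22, 1.05 and 1.07 with both. The ratio was higher with lipid in every letter, with no overlap between groups. The mean difference was 0.86 without and 0.60 with itaconate, and leaving out 1 library at a time gave 0.71 to 0.97 and 0.54 to 0.72. Itaconate against untreated gave a mean difference of 0.19, higher in 4 of 4 letters but with overlapping groups, and 0.07 without itaconate C. Both treatments against lipid gave -0.07, higher in 2 of 4 letters, and 0.08 without lipid C.

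**Figure D2:**
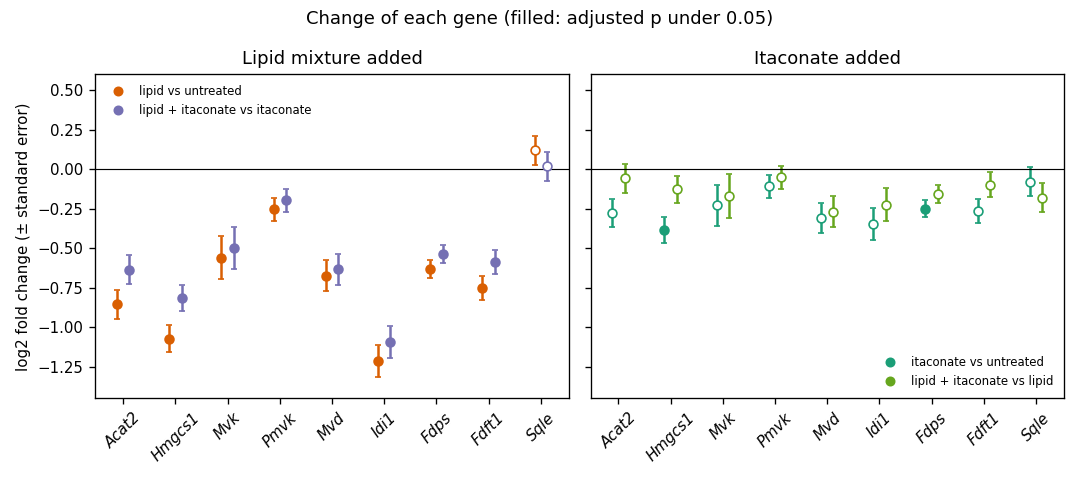
Fitted log2 fold change ± standard error of each gene, in pathway order, when lipid was added (left) or itaconate was added (right); filled points have an adjusted p under 0.05. Lipid values run from -1.21 for Idi1 to 0.12 for Sqle, and itaconate values from -0.39 for Hmgcs1 to -0.05 for Pmvk.

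The second question was whether itaconate, a metabolite of activated macrophages, moved the branch. In cells without lipid, Hmgcs1 and Fdps fell, so 2 of 9 genes were called lower and 0 higher by edgeR, beside 2.95% of all genes called lower and 1.96% higher. All 9 fitted values were negative, with a median of -0.26 against -0.0019 for all genes tested. Hmgcs1 was 23.4% lower (log2 fold change -0.39, SE 0.083, adjusted p 0.0150) and Fdps 15.8% lower (log2 fold change -0.25, SE 0.056, adjusted p 0.0193), each in 4 of 4 letters. The other values were -0.35 for Idi1 (adjusted p 0.0547), -0.31 for Mvd (0.0712), -0.28 for Acat2 (0.0827), -0.26 for Fdft1 (0.0527), -0.23 for Mvk (0.326), -0.11 for Pmvk (0.409) and -0.08 for Sqle (0.656). In every gene the itaconate and untreated libraries overlapped. An unadjusted p under 0.05 was found for 6 of the 9 genes, beside 2482 of the 11675 genes tested.

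The count of genes called with itaconate moved with the model and with single libraries. It was 0 without the letter in the model, 5 by DESeq2, 5 with no filter and 6 when only the 8 libraries of the comparison were fitted. The calls over all genes moved too, from 573 of 11675 in the main fit to 23 without the letter and 784 by DESeq2. They were 1091 of 25152 with no filter and 1865 of 11623 with only those 8 libraries. Without untreated A, untreated B, itaconate C or itaconate D it was 0. Without untreated C it was 1, and without itaconate A it was 5. Itaconate C was the lowest library of its group for 8 of the 9 genes and itaconate A the highest for 9 of 9. Letter C was also lowest among the untreated for 7 genes and among the lipid libraries for 8, the exception there being Sqle, whose highest lipid level was in C. The summed level of the 9 genes was 1044, 887, 675 and 862 CPM in itaconate A to D against 1143, 1069, 912 and 1028 CPM in untreated A to D.

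In lipid-treated cells none of the 9 genes was called with itaconate (0 lower, 0 higher) by edgeR. Of all genes tested, 1.26% were called lower and 1.32% higher. An unadjusted p under 0.05 was found for 3 of the 9, beside 2025 of the 11675 genes tested. DESeq2 called 0 of the 9, beside 508 of all genes. The fitted values were all negative, with a median of -0.16, and the lowest were Mvd at -0.27 (adjusted p 0.174), Idi1 at -0.22 (0.280) and Sqle at -0.18 (0.321). With no filter 2 genes were called, Idi1 and Sqle, and without lipid with itaconate C Idi1 was called, at -0.36 (adjusted p 0.0124). Over all genes, 725 of 25152 were called with no filter and 889 of 11679 without that library, against 301 of 11675 in the main fit. Summed over the 9 genes, the level was 655 ± 52.5 CPM with lipid and 590 ± 24.1 CPM with both (SD, n = 4), against 1038 ± 96.7 in untreated and 867 ± 151 in itaconate libraries. In the group with both treatments B and C stood out. The mean over genes of the squared difference between 2 libraries, relative to counting noise, was 86.9 to 119.5 for lipid with itaconate B against A, C and D, beside 8.55 to 34.7 for pairs within the other groups, and mitochondrial counts made up 6.01% of lipid with itaconate C, the highest share of the 16 libraries. The summed levels of A to D were 602, 591, 555 and 610 CPM. Without lipid with itaconate B, 0 of the 9 genes were called against lipid and 8 given itaconate. Without C these counts were 1 and 7. The counts over all genes were 134 and 5293 without B, and 889 and 5168 without C. These comparisons share libraries (untreated, itaconate, lipid and both each serve in more than 1), so their values stand side by side and are not independent of each other.

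The interaction asks whether the itaconate effect differed with and without lipid. Of the 9 genes 0 passed in edgeR in either direction, beside 0% of all genes lower and 0.00857% higher, and DESeq2 called 0. Over all genes tested, 1004 of 11675 had an unadjusted p under 0.05, and DESeq2 called 33. Of the 9, only Hmgcs1 had an unadjusted p under 0.05, with an interaction of 0.26 on the log2 scale (SE 0.12, adjusted p 0.563, positive in 4 of 4 letters). The 95% intervals of the other genes all held 0, and that of Acat2, the next largest at 0.22, ran from -0.05 to 0.49.

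The rest of the sterol pathway was read from lists of related genes. The counts below stand beside 23.8% of all genes tested rising and 23.7% falling with lipid, and 23.5% each way given itaconate. For itaconate alone these shares were 1.96% rising and 2.95% falling, and for both against lipid 1.32% and 1.26%. An unadjusted p under 0.05 was reached by 2482 of 11675 genes with itaconate alone, 2025 with both against lipid and 1004 for the interaction. DESeq2 called 784, 508 and 33 genes in the same order. No test compared a list with all genes. Of 11 enzymes after squalene epoxide, 1 rose and 8 fell with lipid, with a median log2 fold change of -0.45, and 1 rose and 7 fell given itaconate, with a median of -0.31. The largest fall was in Lss, lanosterol synthase, which acts directly on the product of Sqle, at -1.12 (SE 0.092, adjusted p 1.81e-07) and -0.86 (SE 0.092, adjusted p 3.50e-06). Dhcr7, which reduces a late sterol, rose by 0.47 (SE 0.12, adjusted p 0.00585) and 0.56 (SE 0.13, adjusted p 0.00201). So Sqle lay between Fdft1 and Lss in the pathway, and both of those fell. With itaconate alone 2 of these enzymes fell, Hsd17b7 at -0.37 (adjusted p 0.0394) and Lss at -0.35 (adjusted p 0.0338), and 0 rose; with both against lipid 1 fell, Hsd17b7 at -0.41 (adjusted p 0.0453). These 3 calls were lost without the letter in the model (adjusted p 0.230, 0.255 and 0.303), as was that of Dhcr7 with lipid (0.0625). With itaconate alone the calls of Hsd17b7 and Lss were also lost when any single library but itaconate A was left out (adjusted p up to 0.176 and 0.160), and the call of Hsd17b7 with both when any but lipid with itaconate C was (up to 0.170).

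**Figure D3:**
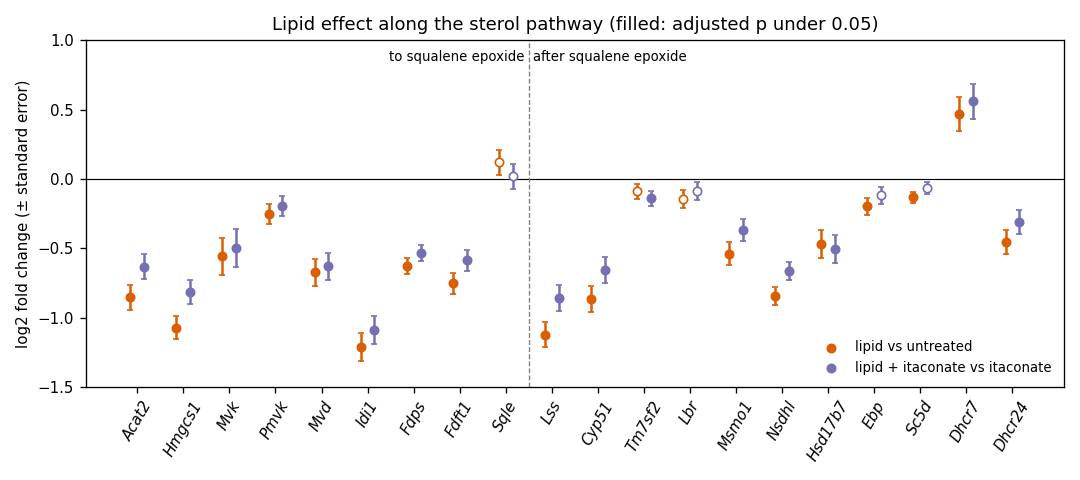
Log2 fold change ± standard error with lipid, without and with itaconate, for the 9 genes and the 11 enzymes after squalene epoxide in approximate pathway order; filled points have an adjusted p under 0.05. Sqle (0.12 and 0.02) is open in both comparisons and lies between Fdft1 and Lss, whose filled points are below 0.

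Of 19 genes of sterol sensing, uptake and rate control, 18 were tested; 2 rose and 6 fell with lipid, with a median log2 fold change of -0.02, and 2 rose and 7 fell given itaconate, with a median of -0.06. Insig1, which retains SREBP in the endoplasmic reticulum and is itself a target of the pathway's regulator, had the largest fall, at -1.38 (SE 0.065, adjusted p 1.08e-09) and -1.10 (SE 0.064, adjusted p 1.47e-08). Erlin1 had the largest rise, at 0.57 (adjusted p 3.91e-06) and 0.36 (adjusted p 0.000304). With itaconate alone 0 rose and 2 fell, Npc2 at -0.16 (adjusted p 0.0362) and Erlin2 at -0.20 (adjusted p 0.0475), and with both against lipid 0 were called by edgeR (2 had an unadjusted p under 0.05, and DESeq2 called 1). The calls of Npc2 and Erlin2 were lost without the letter in the model (adjusted p 0.277 and 0.154), that of Npc2 also when any single library but untreated D or itaconate D was left out (up to 0.1655), and that of Erlin2 when any but untreated C was (up to 0.182).

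Genes of the isoprenoid branches beside sterols, from prenyl transfer and the processing of prenylated proteins to ubiquinone and dolichol, made up another list. Of these 18 genes 5 rose and 2 fell with lipid, with a median of 0.02 over values of both signs, and 5 rose and 3 fell given itaconate. The protein farnesyltransferase subunit Fntb had the largest rise with lipid, at 0.35 (adjusted p 0.00384), and the CAAX protease Rce1 the largest given itaconate, at 0.32 (adjusted p 0.0125), a call lost with only the libraries compared (0.0549) and without itaconate C or lipid with itaconate C or D (adjusted p up to 0.0673). Srd5a3, a dolichol enzyme, had the largest fall in both, at -0.47 (adjusted p 8.41e-05) and -0.34 (adjusted p 0.00127). With itaconate alone 0 of the 18 were called by edgeR, 7 had an unadjusted p under 0.05 and DESeq2 called 2; with both against lipid the counts were 0, 7 and 0.

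Of 15 genes of sterol efflux and LXR targets, 11 were tested, and lipid lowered 5 of them and raised 0. These were Abcg5 at -0.67 (adjusted p 0.00343), Srebf1 at -0.67 (adjusted p 1.31e-06), Scd1 at -0.29 (adjusted p 0.00513), Abca1 at -0.28 (adjusted p 0.000563) and Nr1h3 at -0.25 (adjusted p 0.00491). Without the letter in the model Scd1 (adjusted p 0.449) and Nr1h3 (0.0513) were not called. Given itaconate 1 rose, Lpcat3 at 0.42 (adjusted p 0.00125), and 6 fell, Abcg8 furthest at -0.88 (adjusted p 0.00126). Itaconate alone gave 0 calls by edgeR, 1 unadjusted p under 0.05 and 0 calls by DESeq2, and both against lipid gave 0, 0 and 0.

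Paralogs and side enzymes of the same carbon numbered 10, of which 8 were tested, with a median log2 fold change of -0.07 with lipid and -0.08 given itaconate. With lipid 1 rose, the citrate carrier Slc25a1 at 0.11 (adjusted p 0.0460), and 3 fell, among them the ketone body enzyme Bdh1 at -0.31 (adjusted p 0.0112) and the acetyl-CoA synthetase Acss2 at -0.27 (adjusted p 0.0118). Given itaconate 1 rose, Slc25a1 at 0.14 (adjusted p 0.0114), and 4 fell, among them Bdh1 at -0.32 (adjusted p 0.00747), Acss2 at -0.32 (adjusted p 0.00423) and the citrate lyase Acly at -0.15 (adjusted p 0.0424). Itaconate alone lowered Slc25a1, at -0.19 (adjusted p 0.0207), and both against lipid lowered Acly, at -0.26 (adjusted p 0.0278). None of the calls named here for Slc25a1, Bdh1, Acss2 and Acly held without the letter in the model, where adjusted p ran from 0.0850 (Slc25a1 given itaconate) to 0.533 (Acss2 with lipid). Leaving out 1 library also lost Slc25a1 with lipid (any but untreated C or lipid C, adjusted p up to 0.122), given itaconate (itaconate C, 0.0640) and with itaconate alone (untreated C, itaconate C or itaconate D, up to 0.115). With lipid, Bdh1 was lost without untreated A (0.0576) or lipid A (0.0595), and Acss2 without lipid A (0.0594). Acly was lost given itaconate without itaconate A, B or D or lipid with itaconate B, C or D (up to 0.130), and with both against lipid without lipid C or D or lipid with itaconate A, B or D (up to 0.0999). For the interaction edgeR and DESeq2 each called 0 genes of every list; 4 genes of the sensing list and 1 of the efflux list had an unadjusted p under 0.05.

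The gene whose pattern over the 16 libraries was most like the mean of the 9 was sought among 9350 genes at a mean of at least 5 CPM. Likeness was the root mean square difference of centred log2 CPM. Among the closest 10 were Rab32 at 0.0974, Nsdhl at 0.101, Slc20a2 at 0.123, Msmo1 at 0.126, Cyp51 at 0.133, Abcb1b at 0.139, Ifitm3 at 0.145, Kifc3 at 0.151 and Agpat2 at 0.152 log2 units. Within the branch, which itself enters the mean, Fdft1 at 0.0702 and Fdps at 0.0782 lay nearest and Sqle farthest, at 0.399.

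The genes differ in how uniquely reads can be assigned to them. Of the 50-base words in the transcripts of Acat2, 39.1% also occur in its neighbour Acat3, and all 16 values of Acat2 were fractional, that is, shared out by the estimate. Fdps shares 23.4% with Gm43738, a gene whose exons cover 26.7% of its own on the same strand, and had 16 fractional values. Idi1 shares 17.7% with Gm13502 and had 15, and Fdft1 shares 9.38% with Gm6781 and had 11. Sqle, Pmvk and Mvd share none, and all their values were whole numbers. Acat3, named for this overlap after the values were seen, was at -0.06 on the log2 scale with lipid (95% interval -0.25 to 0.13, adjusted p 0.617).

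Promoters were compared because 8 of the genes fell together. RefSeq windows (GRCm38.p6) from 250 bases before to 50 after the gene start were held for 6 of the 9 genes, with 2 windows for Pmvk; Fdps, Fdft1 and Sqle had no entry. Both strands were searched for TCACNCCAC, strict letters of the sterol regulatory element, for TCACNCNA, a relaxed form that the strict one contains, for the NF-Y box letters CCAAT, for the GC box letters GGGCGG and for the E-box letters CACGTG. Of 32817 promoter windows of this length, 1.24% hold TCACNCCAC, 11% hold TCACNCNA, 37.4% hold CCAAT, 35.6% hold GGGCGG and 7.15% hold CACGTG. Among the 7 windows of the branch, 1 held the strict and relaxed letters (Hmgcs1), 5 held CCAAT, 5 held GGGCGG and 0 held CACGTG. The letters CCAAT occurred 5 times in the Mvk window, 4 times in that of Hmgcs1, 2 times each in those of Mvd and Idi1, and 1 time in the first Pmvk window. The window of Hmgcs1 is shown for its sterol regulatory letters, and those of Idi1 and Acat2 because, of the genes with an entry, these fell furthest beside it. Capitals mark TCACNCCAC and CCAAT on either strand (ATTGG is CCAAT read on the opposite strand). A match describes letters only. The windows are at chr13:119690101-119690400 (plus strand) for Hmgcs1, chr13:8885356-8885655 (plus strand) for Idi1 and chr17:12960676-12960975 (minus strand) for Acat2.
Hmgcs1: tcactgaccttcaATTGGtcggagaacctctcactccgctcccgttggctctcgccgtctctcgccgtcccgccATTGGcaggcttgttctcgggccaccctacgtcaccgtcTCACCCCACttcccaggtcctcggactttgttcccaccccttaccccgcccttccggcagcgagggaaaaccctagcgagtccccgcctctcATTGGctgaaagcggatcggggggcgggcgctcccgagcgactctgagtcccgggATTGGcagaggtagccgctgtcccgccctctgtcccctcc
Idi1: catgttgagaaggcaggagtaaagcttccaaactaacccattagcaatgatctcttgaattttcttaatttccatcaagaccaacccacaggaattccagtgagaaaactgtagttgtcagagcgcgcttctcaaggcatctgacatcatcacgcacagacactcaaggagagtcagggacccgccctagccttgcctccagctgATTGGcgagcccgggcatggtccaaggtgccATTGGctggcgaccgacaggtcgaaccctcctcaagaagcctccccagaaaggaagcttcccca
Acat2: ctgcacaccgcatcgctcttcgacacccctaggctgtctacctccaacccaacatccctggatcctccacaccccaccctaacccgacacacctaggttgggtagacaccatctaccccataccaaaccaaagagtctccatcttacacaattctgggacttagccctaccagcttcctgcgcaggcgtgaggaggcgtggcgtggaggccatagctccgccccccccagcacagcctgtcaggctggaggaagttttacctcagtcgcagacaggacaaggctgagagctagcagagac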

How the data were processed

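The authors deposited expected counts per gene, which the submitters' processing notes and methods trace to Cutadapt 1.18, STAR 2.7.0f and RSEM 1.3.1 on mm10. Expected counts were rounded and scaled by TMM in edgeR 4.0.16 (R 4.3.3), and genes under a mean CPM of 1 were removed. Quasi-likelihood tests used treatment and replicate letter, with Benjamini-Hochberg adjustment over 11675 genes and a threshold of 0.05. The letters come from the sample titles; after group means were removed, libraries with the same letter correlated over genes in all 24 pairs (0.144 to 0.469), against a median of -0.114 over 72 other pairs, so letters were treated as pairs. Alternatives were DESeq2 1.42.0, RLE scaling, filterByExpr, no filter, no letter, only the libraries compared, and each library left out. Gene lengths and positions came from GENCODE annotation. The procedure was also run on simulated counts, and the outcome of that run is not given here. Members and lists were chosen with earlier results of these data known. Named genes were all 9 members, from each list the called gene with the largest rise and fall in each comparison (every called gene where 5 or fewer were called), and the 10 genes most alike; a few genes that the rule covers are not used here.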

Additional observations from a re-analysis of the deposited data

How the results depend on the processing

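Of the 18 called values of the 9 genes over the comparisons, 12 passed the threshold under every alternative and 0 changed sign; the 6 that did not are Mvk and Pmvk with lipid (with and without itaconate) and Hmgcs1 and Fdps with itaconate. Of 35 called values that the naming rule covers outside the branch, 17 passed under every alternative and 0 changed sign. Without the replicate block the count of the 9 genes called with itaconate against untreated was 0 in place of 2. It was 5 with no filter, 5 by DESeq2, 6 with only the libraries compared, and 0 to 5 with 1 library left out. Over all genes the calls were 23 in place of 573 without the block, 1091 with no filter and 784 by DESeq2. With only the libraries compared they were 1865, and with 1 library left out 149 to 395. For both treatments against lipid the count among the 9 was 2 with no filter in place of 0, and 0 to 1 with 1 library left out. Over all genes these calls were 725 in place of 301, and 59 to 889. The lipid counts among the 9 were 7 to 8 with 1 library left out, beside 4530 to 5293 calls over all genes. In both lipid comparisons Mvk and Pmvk were not called without the replicate block. The cause of these shifts was not tested.

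By longest transcript in place of exon length, untreated ranks became 4 for Sqle, 5 for Fdft1 and 6 for Acat2, since the lengths differ. With 1 library left out, log2 fold changes of the 9 genes that changed sign had the ranges -0.0351 to 0.223 (Mvk interaction), -0.0273 to 0.114 (Mvd interaction), -0.0163 to 0.115 (Pmvk interaction), -0.0131 to 0.208 (Idi1 interaction), -0.195 to 0.0043 (Sqle interaction), -0.0665 to 0.0877 (Sqle, both against itaconate) and -0.0972 to 0.0090 (Pmvk, both against lipid); none of these had been called. Depth limits Mvk and Mvd most.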
